A study of Mus musculus with 4 samples.

Results

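N-linked glycans are sugar chains carried on asparagine residues of secreted and membrane proteins. A lipid-linked precursor is first built on dolichol at the endoplasmic reticulum, moved as a block to the new protein by the oligosaccharyltransferase complex, and trimmed of glucose and mannose while the protein folds. In the Golgi apparatus the trimmed chain is branched with N-acetylglucosamine (GlcNAc) and extended with galactose, and in vascular smooth muscle such chains sit on integrins, growth factor receptors and matrix proteins. The genes of this pathway described here were 53 enzymes and subunits listed by pathway step, of which 35 were found by symbol among the 909 named genes of the array. The other 18 were not found by symbol and are not analysed here: 6 of the precursor step, 2 of the oligosaccharyltransferase (Stt3a and Stt3b, its catalytic subunits), 2 of glucose trimming, 5 of mannose trimming and all 3 of the mannose-6-phosphate tag. Each of the 35 genes had 1 probe set, so no choice between probe sets was needed.

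The cells were vascular smooth muscle cells (VSMC) of wild-type mice, and all had been driven towards a bone-like state with osteogenic medium. In 2 arrays the cells were also given 0.4 mM streptozotocin, a glucosamine-containing nitrosourea toxic to pancreatic beta cells, and in the other 2 they were not. The titles name 2 cell samples, WT2 (replicate 1) and WTA (replicate 2), here called cultures, and each gave 1 array to either arm. The labels do not say whether these are separate animals, so p-values of the treatment comparison measure only the spread between these samples, which may be technical. Fits that hold culture as a term measure how unlike the treatment differences of the cultures were. All 4 titles also carry a "3w" that the labels do not explain, so it is not read here as a culture time, a treatment time or an age. Strain and passage were not given in the sources used here.

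The 4 arrays had medians between 5.83 and 5.87 on the log2 scale, and their number limits the precision. The control array of WT2 stood apart, with correlations of 0.982 and 0.977 to the arrays of WTA, which correlated at 0.997 with each other. None of the 8 smooth muscle markers and 7 bone markers chosen to check the labels was found by symbol, so the array gave no check of the cell type. Of the 10 endothelial markers 4 were measured, and 3 of them had means under the median of all probe sets (5.86). The other, Esm1, ran from 3.99 and 4.48 in WT2 to 9.00 and 9.33 in WTA. Leukocyte markers were listed under 13 symbols, with Adgre1 also under its old symbol Emr1. Of these 6 were measured, 5 of them under that median. The one above it, Csf1r, stood at 7.66 (control) and 7.40 (streptozotocin) in WT2 and at 7.47 and 7.92 in WTA. The summed linear signal of the measured endothelial markers was 90.5 (control) and 104 (streptozotocin) in WT2 and 584 and 717 in WTA. This rise came from Esm1, and the other 3 did not share it. Icam2 was lower in WTA, at 5.65 (control) and 5.88 (streptozotocin) in WT2 and 5.54 and 5.61 in WTA. The Sele values of the cultures overlapped, and Pecam1 was only slightly higher in both WTA arrays. The sum of the leukocyte markers lay between 295 and 377. The part of other cell types in the culture differences below was not tested. In bulk samples, fewer cells of a type and less RNA per cell cannot be told apart.

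Of the 35 N-glycan genes, 27 had means above the median of all probe sets. Levels of different genes cannot be ranked here, because each probe set has its own response, but values at the low end hold background and their differences are compressed. The 8 genes under the median were Alg6, Alg13, Rpn1, Dad1, Uggt2, Mgat4a, Mgat4c and Mgat5b. Over the 4 arrays the N-glycan genes spanned a median range of 0.25 log2 units, from 0.036 (Rpn2) to 0.91 (Man2a1), beside a median of 0.28 over all named genes. Among genes above the array median the spans were 0.25 for 27 N-glycan genes and 0.39 for all 518. These are descriptions, with no test.

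**Figure D1:**
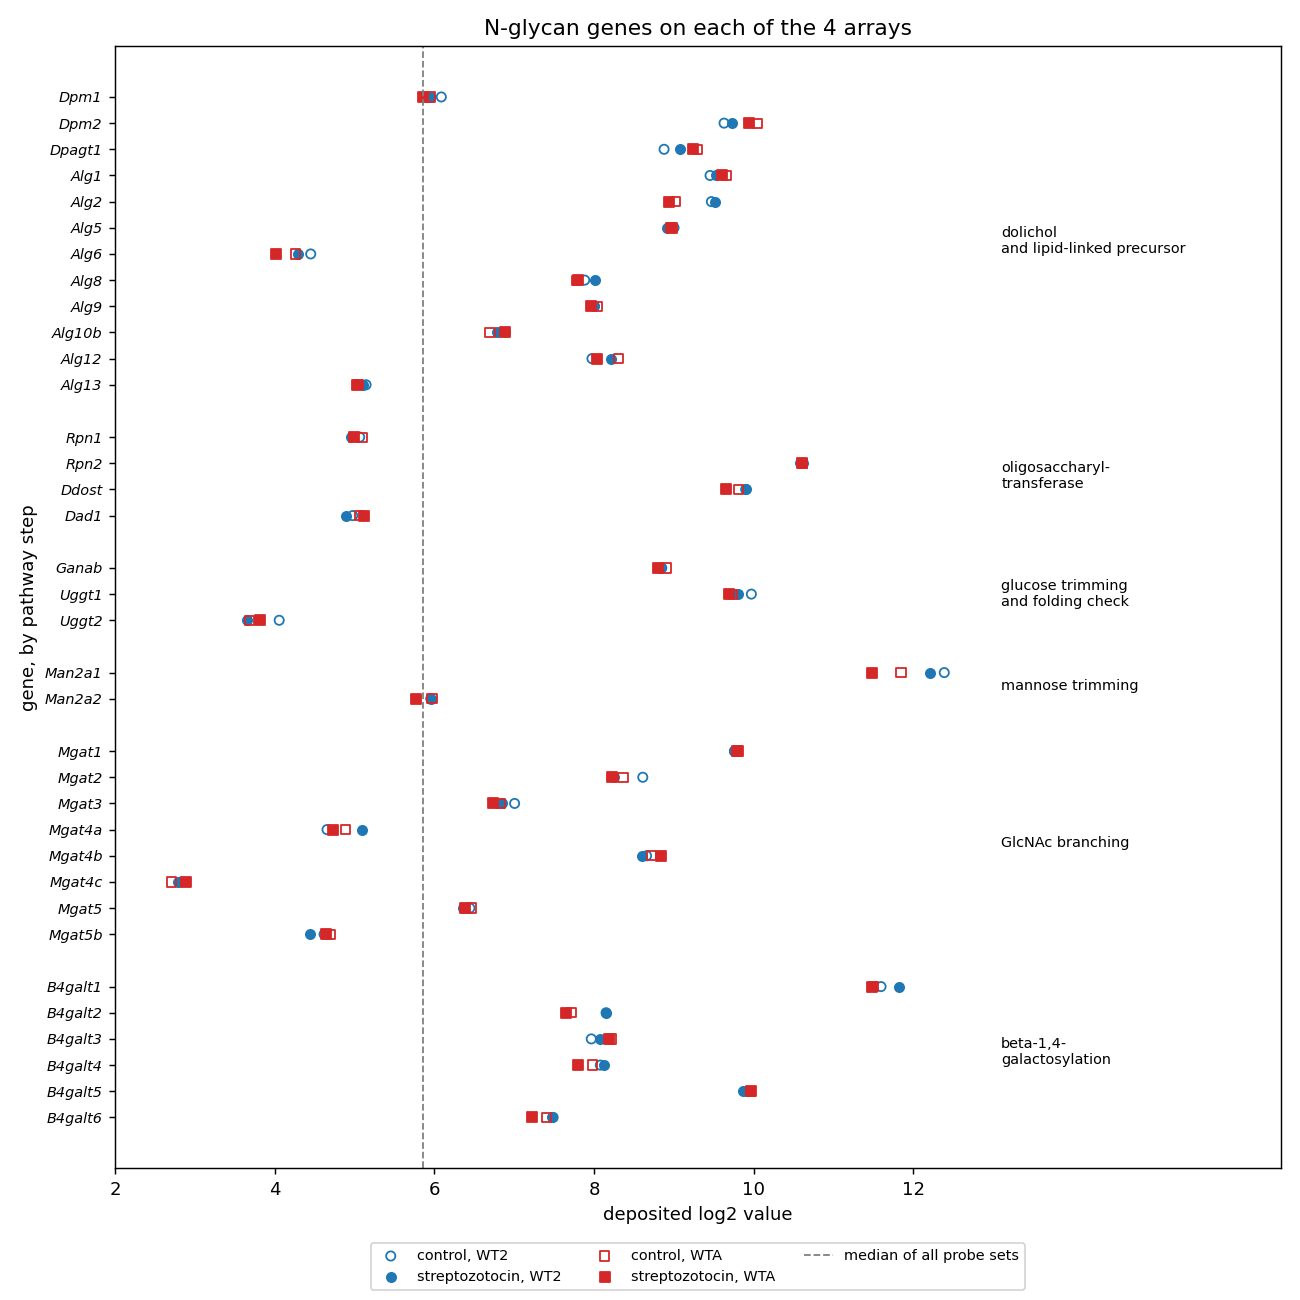
Deposited log2 values (horizontal axis) of the 35 measured N-glycan genes (vertical axis, by pathway step) on each of 4 arrays; open symbols are control and filled symbols streptozotocin, circles WT2 and squares WTA, and the dashed line is the median of all probe sets (5.86). The 4 symbols lie close together for most genes, and Man2a1, Alg2 and B4galt2 show the WTA squares to the left of the WT2 circles.

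The first comparison asked how glycan genes respond to streptozotocin while VSMC are in osteogenic medium. No N-glycan gene passed the test: limma found 0 of 35 at an adjusted p under 0.05 (smallest adjusted p = 1), where 0% of all 1246 probe sets passed. At an unadjusted p under 0.05 the number was also 0 of 35, beside 2.01% of all probe sets. With the culture as a block limma again gave 0 of 35 (smallest adjusted p = 0.771), and 0 at an unadjusted p under 0.05, beside 0% and 6.42% of all probe sets. The differences ran from -0.27 to 0.14 log2 units, with a median of -0.039 beside -0.0085 over all named genes. No gene of the pathway differed by 1.5-fold or more in either culture, while 8.25% of all named genes did so in WT2 and 2.75% in WTA. For 27 of the 35 genes the 95% interval of the difference lay within 1.5-fold in both directions, beside 64.7% of all named genes. With the culture as a block, which narrows the intervals where cultures differ, that number was 33, beside 717 of the 909 named genes. Without the streptozotocin array of WT2 the unblocked fit gave 16, and without the control array of WTA 13. Such fits have fewer arrays to estimate the spread, so intervals tend to widen for any gene. The share of all named genes was not counted for them.

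Small differences below 0 were the more frequent ones. With streptozotocin 16 of the 35 genes (45.7%) were lower in both cultures and 1, Alg8, was higher in both, while 30.1% of all named genes were lower in both and 22.1% higher. After centring each array on its median the counts were 15 lower and 4 higher, beside 25.6% and 24.1% of all named genes, and after quantile normalization 15 and 5, beside 28.1% and 22.4%. For 7 genes both streptozotocin arrays lay below both control arrays, beside 14.4% of all named genes, and for 0 genes above, beside 10.3%. These 7 were Dpm1, Alg9, Rpn1, Ganab, Man2a2, Mgat2 and Mgat5, with gaps between the nearest treated and control arrays from 0.003 (Man2a2) to 0.11 (Mgat2), and after quantile normalization the counts were 4 below (11.4%) and 1 above. Over all named genes the shares were then 14.2% and 10.8%, so the share below was no longer above that of all genes. Without the control array of WT2 they were 14 below and 3 above (28.5% and 28.4% of all named genes). Without the treated array of WT2 they were 18 and 4 (35.3% and 30.4%), without the control array of WTA 17 and 7 (38.8% and 29.0%), and without the treated array of WTA 14 and 7 (31.5% and 26.7%). The remaining 18 genes (51.4%) had opposite signs in the cultures, beside 47.7% of all named genes. None of these counts is a test.

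**Figure D2:**
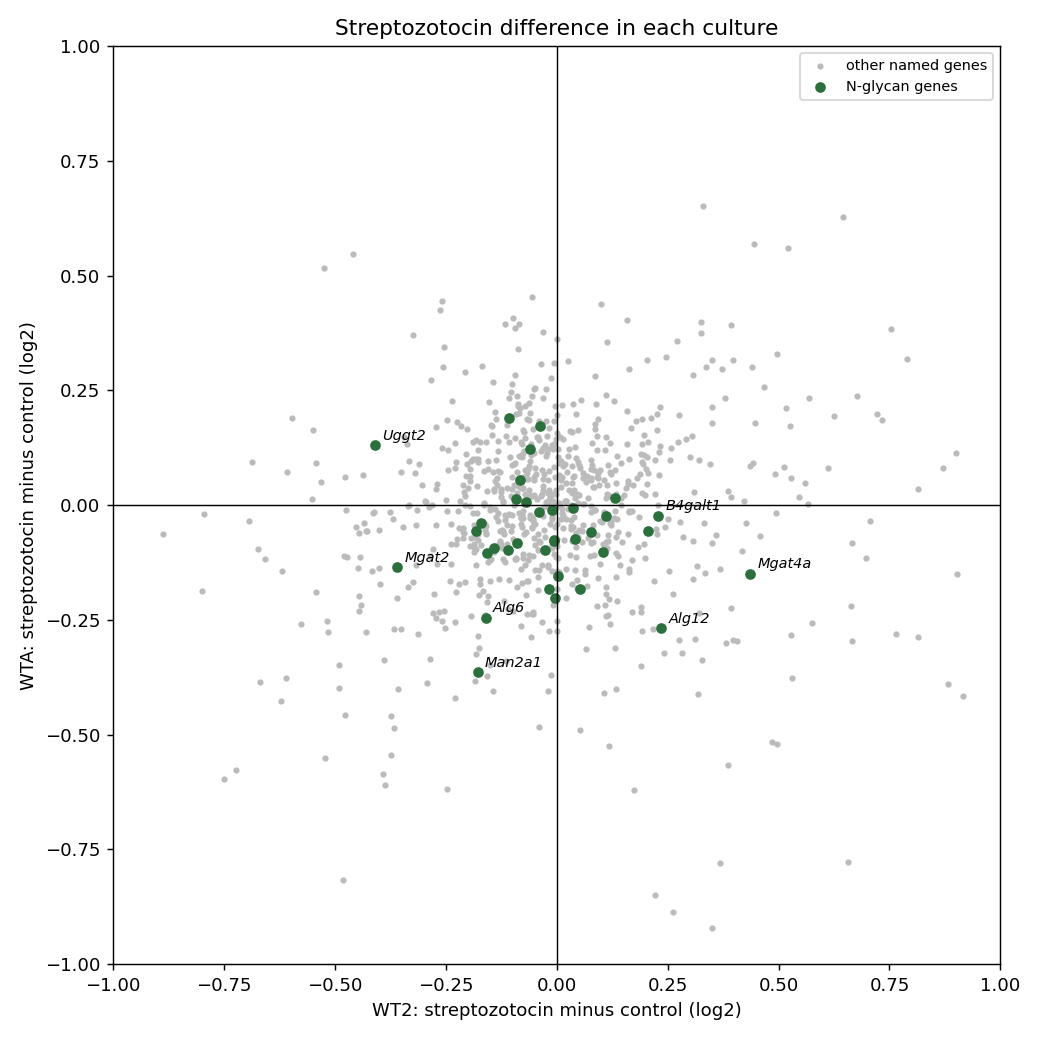
Log2 difference, streptozotocin minus control, in WT2 (horizontal axis) and WTA (vertical axis) for the 35 N-glycan genes (green) and the other named genes (grey), 1 array per arm in each culture; 38 grey genes lie beyond the axes. The green points stay within 0.44 of 0 in WT2 and 0.36 in WTA, with 16 below 0 on both axes and 1 above 0 on both.

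The promoters of 4 genes are printed because the results turn on them or because of a motif: Man2a1 had the largest difference both with streptozotocin and between cultures, Mgat2 the next largest with streptozotocin, and B4galt2 one of the 3 largest between cultures. Alg12 held the only match to the endoplasmic reticulum stress element. Each line gives the 250 bases before the annotated start, 5′ to 3′ on the gene's strand, from RefSeq on GRCm38.p6. Capitals mark matches on either strand to the GC box (GGGCGG), the CCAAT box (CCAAT) and the stress element (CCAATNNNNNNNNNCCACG), which itself begins with a CCAAT box.
Man2a1: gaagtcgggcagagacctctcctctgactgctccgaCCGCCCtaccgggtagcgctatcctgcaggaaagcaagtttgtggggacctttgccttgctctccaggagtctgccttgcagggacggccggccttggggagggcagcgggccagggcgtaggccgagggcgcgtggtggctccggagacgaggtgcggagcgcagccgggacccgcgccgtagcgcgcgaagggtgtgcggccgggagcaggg
Mgat2: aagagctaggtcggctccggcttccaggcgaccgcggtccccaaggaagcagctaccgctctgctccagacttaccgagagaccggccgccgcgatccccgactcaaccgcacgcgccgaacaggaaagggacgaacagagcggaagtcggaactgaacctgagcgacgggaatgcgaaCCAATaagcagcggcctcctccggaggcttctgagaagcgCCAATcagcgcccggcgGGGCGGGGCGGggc
B4galt2: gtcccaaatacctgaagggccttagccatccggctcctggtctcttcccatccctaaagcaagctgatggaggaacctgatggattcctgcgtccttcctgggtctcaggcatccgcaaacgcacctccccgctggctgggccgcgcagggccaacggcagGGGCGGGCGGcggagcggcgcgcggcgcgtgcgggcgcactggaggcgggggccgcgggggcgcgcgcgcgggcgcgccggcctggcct
Alg12: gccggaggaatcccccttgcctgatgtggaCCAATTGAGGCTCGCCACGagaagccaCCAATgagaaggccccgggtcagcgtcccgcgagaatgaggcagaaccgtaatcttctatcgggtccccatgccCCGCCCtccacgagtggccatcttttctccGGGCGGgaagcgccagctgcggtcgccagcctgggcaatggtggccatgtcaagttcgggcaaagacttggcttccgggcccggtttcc
The Man2a1 stretch is chr17:64601399-64601648 (plus strand), that of Mgat2 chr12:69183908-69184157 (plus), that of B4galt2 chr4:117883477-117883726 (minus) and that of Alg12 chr15:88819319-88819568 (minus).

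Promoters were listed for 29 of the 35 genes, and the share with a motif was counted over all starts of a gene. A GC box was found for 23 of the 29 (79.3%), beside 51.7% of the 708 array genes and 35.4% of the 27025 genes with a listed promoter. A CCAAT box was found for 13 (44.8%), beside 35.7% and 37.5%. The stress element, known as a binding site of unfolded protein response factors, matched in 1 of 29, Alg12, 220 bases before the start. It matched in 0.28% of the array genes and 0.13% of all genes. The E-box CACGTG matched for Dpm2 alone, beside 8.62% of the array genes and 6.86% of all genes. The cAMP response element TGACGTCA matched for B4galt3 alone, beside 1.69% and 1.77%. A match is a description of the letters and not a measured binding site.

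Precursor assembly starts with the donors. Dpm1, the catalytic subunit that makes dolichol-phosphate-mannose, stood at 6.09 (control) and 5.94 (streptozotocin) in WT2 and at 5.95 and 5.86 in WTA. Both treated arrays were below both controls, with a gap of 0.01 between the nearest pair. Its partner subunit gene Dpm2 went from 9.63 to 9.73 in WT2 and from 10.05 to 9.94 in WTA. Here the cultures separated and the treatments did not. Alg5, which makes dolichol-phosphate-glucose, spanned 0.093 log2 units over the 4 arrays.

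Dpagt1 adds the first sugar to dolichol and is the target of tunicamycin. Its values were 8.88 (control) and 9.08 (streptozotocin) in WT2 and 9.29 and 9.23 in WTA, so the treatment difference was 0.21 in WT2 but -0.057 in WTA. The control array of WT2 was the lowest of the 4. Alg13, a subunit of the enzyme that adds the next sugar, a GlcNAc, differed by -0.028 with streptozotocin. Alg1 and Alg2, the mannosyltransferases that follow, differed by 0.0091 and -0.016.

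Alg9 and Alg12 add mannose on the lumenal side. Alg12 had one of the widest gaps between cultures in its treatment difference: it went from 7.97 to 8.21 in WT2 and from 8.30 to 8.04 in WTA. The control arrays were thus the lowest and the highest of the 4, and the mean difference was -0.016 (SE 0.16, limma adjusted p = 1). Alg9 spanned 0.079 log2 units in all. Alg6, Alg8 and Alg10b add the 3 glucoses that end assembly, in that order.

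Alg6 was lower with streptozotocin in both cultures, at 4.45 (control) and 4.29 in WT2 and 4.26 and 4.01 in WTA. Its groups overlapped, and all 4 values were close to the arrays' lower quartiles, 4.39 to 4.40, or under them, where background weighs most. Alg8 was the 1 gene higher in both cultures, from 7.88 to 8.01 in WT2 and from 7.78 to 7.80 in WTA. Alg10b differed by -0.11 in WT2 and 0.19 in WTA. Of the 12 precursor genes measured, 4 were lower in both cultures and 1 was higher, beside 30.1% and 22.1% of all named genes. Their median difference was -0.016.

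The oligosaccharyltransferase moves the finished chain to the protein. Rpn2, a structural subunit, was the steadiest gene of the pathway, at 10.59 (control) and 10.62 (streptozotocin) in WT2 and 10.62 and 10.61 in WTA. Ddost, another subunit, stood at 9.90 and 9.90 in WT2 and at 9.81 and 9.65 in WTA. Rpn1 went from 5.06 to 4.95 in WT2 and from 5.09 to 4.99 in WTA, below its controls in both, and Dad1 from 4.98 to 4.89 and from 5.06 to 5.11. The low signal of the Rpn1 and Dad1 probe sets limits what their differences can show. The median difference over the 4 measured subunits was -0.045.

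Glucose trimming and re-addition control the folding cycle with the chaperones calnexin and calreticulin. Ganab, the catalytic subunit of the glucosidase that trims the inner glucoses, went from 8.85 to 8.82 in WT2 and from 8.90 to 8.80 in WTA. Uggt1, the folding sensor that puts glucose back on unfolded glycoproteins, went from 9.97 to 9.80 in WT2 and from 9.73 to 9.69 in WTA. Both were lower in both cultures, without a call. Uggt2, its homologue, went from 4.05 to 3.65 in WT2 and from 3.69 to 3.82 in WTA, with values under the lower quartile. Its mean difference of -0.14 was 0.045 without the control array of WT2, a value that also holds the culture difference.

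Man2a1, the Golgi mannosidase that trims the chain after the first GlcNAc is added and so opens the way to complex glycans, had the largest difference of all N-glycan genes. It went from 12.39 (control) to 12.21 (streptozotocin) in WT2 and from 11.84 to 11.48 in WTA. Treated arrays were lower within each culture, but both WT2 arrays lay above both WTA arrays, so the treatment groups overlapped. Treated cells averaged 11.85 ± 0.52 and controls 12.12 ± 0.38 (SD, n = 2 each), and they differed by -0.27 (95% interval -1.26 to 0.72, limma adjusted p = 1). After quantile normalization the difference was -0.17. With the culture as a block the interval was -0.57 to 0.029 (limma adjusted p = 0.771). Without the control array of WT2 the difference was 0.00086, and without the streptozotocin array of WTA 0.094, values that also hold the culture difference. Man2a2, its homologue, stood at 5.95 and 5.95 in WT2 and at 5.97 and 5.77 in WTA.

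GlcNAc branching followed, with all 8 listed genes measured. Mgat1, which adds the first branch, was nearly level, at 9.76 (control) and 9.75 (streptozotocin) in WT2 and at 9.80 and 9.79 in WTA. Mgat2 adds the second branch, after Man2a1 has acted. It went from 8.61 to 8.25 in WT2 and from 8.36 to 8.23 in WTA, so both treated arrays lay below both controls. Treated cells averaged 8.24 ± 0.017 and controls 8.49 ± 0.18 (SD, n = 2 each), and they differed by -0.25 (SE 0.12, limma adjusted p = 1). The 95% interval with the culture as a block was -0.56 to 0.066 (limma adjusted p = 0.832). The difference was -0.12 without the control array of WT2 and -0.37 without that of WTA, values that also hold the culture difference.

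Among the later branching genes Mgat3, Mgat5 and Mgat5b were lower in both cultures, and the Mgat4 genes had opposite signs. Mgat3, which adds the bisecting GlcNAc, went from 7.00 to 6.85 in WT2 and from 6.83 to 6.73 in WTA, and Mgat5, whose branch is known to favour galectin binding, from 6.44 to 6.35 and from 6.46 to 6.38. The Mgat5 difference was close in both cultures, -0.090 and -0.083. Mgat5b, its homologue, differed by -0.18 and -0.057. Mgat4a and Mgat4b add the same further branch. Mgat4a went from 4.65 to 5.09 in WT2 and from 4.88 to 4.73 in WTA. Its mean difference of 0.14 was -0.035 without the streptozotocin array of WT2, a value that also holds the culture difference. Mgat4b went from 8.66 to 8.60 and from 8.72 to 8.84. Mgat4c went from 2.83 to 2.79 in WT2 and from 2.71 to 2.88 in WTA, a mean difference of 0.067. These values were near the lowest on the arrays. In all, 5 of the 8 were lower in both cultures and 0 higher, beside 30.1% and 22.1% of all named genes. Their median difference was -0.048.

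B4galt enzymes add galactose to the branches, B4galt1 being the main one for N-glycans, while B4galt5 and B4galt6 are known mainly for making lactosylceramide. B4galt1 stood at 11.59 (control) and 11.82 (streptozotocin) in WT2 and at 11.50 and 11.48 in WTA. The treated WT2 array stood above the other 3, and without it the difference of 0.10 became -0.069, which also holds the culture difference. B4galt2 stood at 8.15 and 8.14 in WT2 and at 7.72 and 7.64 in WTA, and B4galt3 at 7.96 and 8.08 and at 8.21 and 8.19. B4galt4 differed by 0.052 in WT2 and -0.18 in WTA, B4galt5 by -0.069 and 0.0065, and B4galt6 by -0.017 and -0.18. In none of the 6 did the treatment groups separate. Of all named genes 14.4% had both treated arrays below both controls and 10.3% above, so a count of 0 among 6 genes shows little.

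The second comparison set WTA against WT2, in a fit with treatment and culture. It describes 1 cell sample a side, each with 2 arrays, so its p-values say nothing of how other cell samples would vary. The N-glycan genes with the largest culture differences were lower in WTA: Man2a1 by -0.64 (SE 0.10, limma adjusted p = 0.0972), Alg2 by -0.51 (SE 0.098, adjusted p = 0.124) and B4galt2 by -0.47 (SE 0.095, adjusted p = 0.135). For Alg2, which adds mannoses to the early precursor, the values were 9.47 and 9.51 in WT2 and 9.02 and 8.94 in WTA. These 3 genes were picked for their culture differences. That both WTA arrays lay below both WT2 arrays thus follows in part from the choice. So does a culture difference larger than the treatment difference within either culture, which all 3 had.

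None of the 35 passed at an adjusted p under 0.05, where 2.25% of all probe sets did, and 4 had an unadjusted p under 0.05 (11.4%), beside 16.9% of all probe sets. The fourth of these was Dpm2, higher in WTA by 0.32 (SE 0.11, limma adjusted p = 0.286). After it on the higher side came Dpagt1 (0.28), B4galt3 (0.18), Dad1 (0.15) and Mgat4b (0.15). On the lower side Alg6 (-0.23) and B4galt1 (-0.22) followed B4galt2. In all, 19 genes were lower in WTA and 16 higher, with a median of -0.046 beside -0.017 over all named genes.

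**Figure D3:**
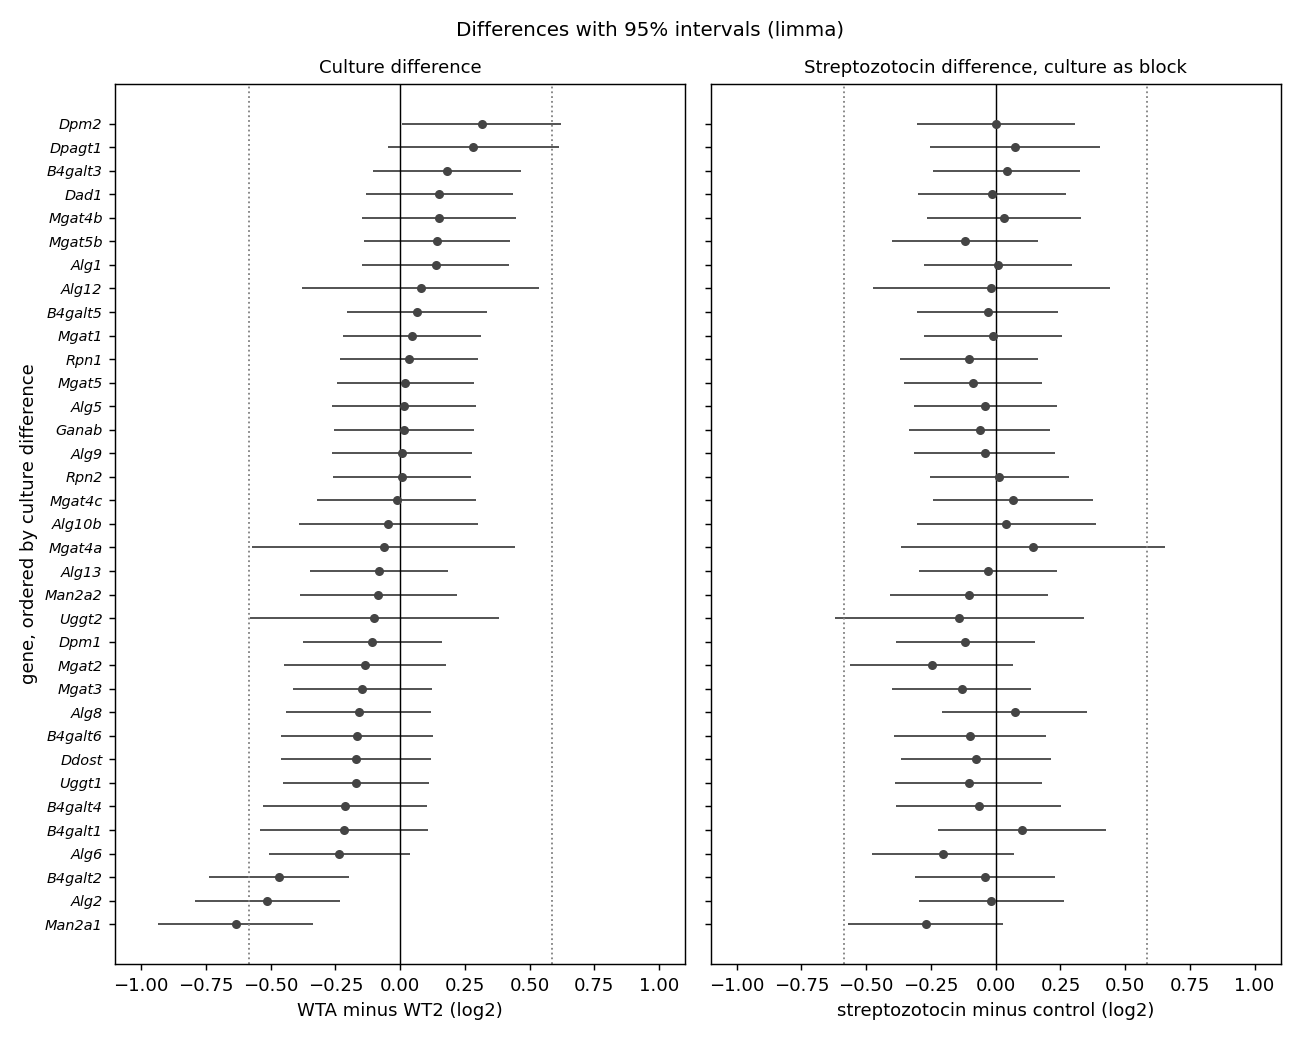
Log2 differences with 95% intervals from limma for the 35 N-glycan genes, ordered by the culture difference: WTA minus WT2 on the left, streptozotocin minus control with the culture as a block on the right; dotted lines mark 1.5-fold. On the left Man2a1, Alg2, B4galt2 and Dpm2 have intervals that leave out 0 before adjustment, and on the right every interval includes 0.

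Of 42 other genes listed for the pathway (folding lectins, capping enzymes, receptors and lysosomal trimming) 12 were measured. With streptozotocin 0 of the 12 passed the test in limma with or without the block, beside 0% of all probe sets. At an unadjusted p under 0.05 the count was also 0 in both fits. Of all probe sets 2.01% did so without the block and 6.42% with it. The 12 genes were lower in both cultures in 4 cases (33.3%), beside 30.1% of all named genes. They were higher in both in 4 (33.3%), beside 22.1%, and had a median difference of 0.0083. Between cultures 6 of the 12 had an unadjusted p under 0.05, beside 16.9% of all probe sets, and 1 passed the test, beside 2.25%. This was St6gal1, which caps the galactose added by B4galt1 with sialic acid: it stood at 6.56 (control) and 6.38 (streptozotocin) in WT2 and at 8.11 and 8.21 in WTA (difference 1.69, limma adjusted p = 0.0281). Manba, a lysosomal mannosidase, stood at 9.07 and 9.09 in WT2 and at 8.41 and 8.50 in WTA, a difference of -0.63 that did not pass (limma adjusted p = 0.0826).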

How the data were processed

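Trizol-extracted RNA was made into biotin-labelled cRNA from 0.5 ug of total RNA, per the labels' protocols. The deposited table gives 1 log2 value per probe set and array. Per the submitters' processing notes RMA was used, with no version or settings stated there. Its default steps make array distributions alike, which would hide a shift shared by most genes.

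Probe sets were named from the RefSeq accession in their identifier, without version, through a mouse gene table (GRCm38.p6): 963 of 1246 had a symbol, giving 909 genes. Where a gene had several probe sets, the one with the highest mean stood for it. Names of 7 N-glycan probe sets (Dpm2, Dpagt1, Alg2, Alg6, Alg8, Alg10b and Mgat4a) carry an s, which can mark probes shared between transcripts.

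Streptozotocin was compared with control by limma 3.58.1 in R 4.3.3 (2 residual degrees of freedom without the block). The fits that hold culture as a term have fewer. P-values were adjusted by Benjamini-Hochberg over all 1246 probe sets, and 0.05 was the threshold. The culture difference came from a fit with treatment and culture. Same-numbered arrays carry the same culture name, and their deviations from the group means correlated at 0.600 over probe sets, so the numbers pair the arrays. Members and lists were chosen with earlier results of these data known. Values on every array are given for the 5 largest differences in each direction of both comparisons and the highest probe set of each step, and other members were added after their values were seen. The fits were tested on simulated data that held no culture difference. That test cannot show how the fit without the block does where cultures differ. Alternatives were the block, each array left out, 2 scalings, a filter on dim probe sets, 2 variance models, other thresholds and the mean of all probe sets.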

Additional observations from a re-analysis of the deposited data

Results flagged for a closer look

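For 18 of the 35 genes (51.4%) the streptozotocin difference had opposite signs in WT2 and WTA, close to the 47.7% of all named genes. These differences between cultures were not tested, since each culture had 1 array per arm. The WT2 difference minus the WTA difference, on the log2 scale, was positive for Mgat4a (0.59), Alg12 (0.50), Dpagt1 (0.26), B4galt1 (0.25), B4galt4 (0.23), Dpm2 (0.21), Ddost (0.16), Alg1 (0.14), B4galt3 (0.14), Alg2 (0.12) and Rpn2 (0.043). It was negative for Uggt2 (-0.54), Alg10b (-0.30), Mgat4c (-0.21), Mgat4b (-0.18), Dad1 (-0.14), Alg5 (-0.11) and B4galt5 (-0.076). The widest were those of Mgat4a, Uggt2 and Alg12, and Mgat4a and Uggt2 had means under the median of all probe sets.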

How the results depend on the processing

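No N-glycan gene passed the streptozotocin test under any alternative run, and with the replicate block the count was 0 and the median difference -0.039, as without it. Between cultures 1 gene, Man2a1, passed when the threshold was 0.1 in place of 0.05, and 0 under the other alternatives that kept all 4 arrays. The share of all probe sets passing at 0.1 was not counted, so this 1 gene cannot be set beside it. With the robust variance model Man2a1 came close to the 0.05 threshold (limma adjusted p = 0.0522). The median difference over the pathway was -0.027 after median centring and -0.026 after quantile normalization, and with 1 array left out it ran from -0.026 (without the treated array of WTA) to -0.063 (without the treated array of WT2). The count of genes with both treated arrays below both controls moved from 7 to 4 after quantile normalization, where 11.4% of these genes stood beside 14.2% of all named genes, and to between 14 and 18 with 1 array left out, where the share over all named genes rose too (28.5% to 38.8%). The count of intervals within 1.5-fold ranged from 13 to 18 with 1 array left out, where fewer arrays tend to widen the intervals of any gene. No share of all named genes was counted there. Leaving out 1 array turned the direction for Man2a1 (-0.63 to 0.094), Uggt2 (-0.32 to 0.045), Mgat4a (-0.035 to 0.32), B4galt1 (-0.069 to 0.27), Dpagt1 (-0.13 to 0.28) and Alg8 (-0.035 to 0.18). It kept the direction but moved the value by over 1.5 times for Mgat2 (-0.37 to -0.12), Alg6 (-0.34 to -0.064), Mgat3 (-0.22 to -0.044) and Mgat4c (0.0083 to 0.13). Such fits unbalance the cultures, so their values also hold the culture difference. Within each culture Man2a1 was lower with streptozotocin and Alg8 was higher. Uggt2, Mgat4a, B4galt1 and Dpagt1 had opposite signs in the cultures. The other settings turned no direction among the 10 streptozotocin and 10 culture differences followed, but quantile normalization moved the streptozotocin difference to -0.17 for Man2a1, 0.17 for B4galt1 and 0.035 for Alg8, and the culture difference of B4galt1 to -0.14. Taking the mean of all probe sets or any probe set changed nothing for these genes, which have 1 each. Alternatives for the 1.5-fold and overlap counts were chosen after seeing the data. Background limits the 8 genes under the array median.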
